A study of Mus musculus with 6 samples.

Results

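The red cell membrane skeleton is a meshwork of spectrin, short actin filaments and linker proteins that lines the inner face of the erythrocyte membrane and lets the cell deform and recover its shape. Erythroblasts switch on the genes of its proteins as they mature, and inherited loss of several of them causes hereditary spherocytosis or elliptocytosis. The genes of 9 of these proteins, taken by name with earlier results of these data known, are described here: Sptb, Ank1, Epb42, Epb41, Mpp1, Add1, Add2, Dmtn and Tmod1. These were 9 of the 17060 genes listed in at least 1 culture, and all 9 were found in every culture.

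The cells came from the BM of WT mice. Lineage-negative cells, the fraction left after mature blood cells are removed and one that holds stem and progenitor cells, were grown with EPO, the hormone that drives erythroid maturation, and received either the vehicle DMSO or NUP-17d, a small molecule developed to bind and inhibit the actin-regulating protein pleckstrin-2. RNA was taken after 48 hours from 3 DMSO cultures and 3 NUP-17d cultures. The labels do not say whether the cultures came from separate mice, so p-values measure the spread between these cultures, which may be technical. Mouse age and strain were not given in the labels.

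The libraries were of nearly equal depth, with 20278433 to 20419018 expected counts per DMSO culture and 20076409 to 20170197 per NUP-17d culture. An expected count is an estimated number of reads per gene. Erythroid identity was present in both groups: all 13 erythroid markers were listed, and hemoglobin genes took 18.3% to 20.3% of the counts with DMSO and 11.8% to 13.1% with NUP-17d. Levels between cultures are given as CPM, counts scaled to a common library size with the TMM factors of edgeR, which correct for library composition. The scaling factors were 0.887 to 0.930 with DMSO and 1.08 to 1.11 with NUP-17d. Levels of different genes are compared only as FPKM, which divides by transcript length and has no composition correction.

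The proteins fall into vertical and horizontal links. Beta spectrin (Sptb) is part of the filaments, ankyrin-1 (Ank1) ties them to the anion exchanger band 3, and protein 4.2 (Epb42) steadies that tie. At the ends of the filaments protein 4.1R (Epb41) joins spectrin to actin and, with p55 (Mpp1), to glycophorin C. Alpha and beta adducin (Add1, Add2) cap the fast-growing end of the actin filament, tropomodulin-1 (Tmod1) caps the slow-growing end, and dematin (Dmtn) bundles actin.

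The genes lie on 8 chromosomes of the mouse genome (GRCm38, mm10). The annotated protein-coding genes are Sptb at chr12:76580488-76710547, Ank1 at chr8:22974844-23150497, Epb42 at chr2:121017891-121037072, Epb41 at chr4:131923413-132075321, Mpp1 at chrX:75109733-75131016, Add1 at chr5:34573664-34632308, Add2 at chr6:86028681-86124409, Dmtn at chr14:70601263-70636048 and Tmod1 at chr4:46038935-46116032. Sptb, Epb42, Epb41, Mpp1 and Dmtn are on the minus strand and the other genes on the plus strand. Exon bases are shared by 4 of the genes with a gene on the opposite strand that was also listed: Sptb with Plekhg3 (mean 456 counts), Tmod1 with Tstd2 (613), Mpp1 with Dkc1 (1574) and Ank1 with Gm15816 (63.4). The sources used here do not settle whether reads were counted by strand, so in these overlaps reads of the 2 genes could not be told apart.

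Promoter sequences are shown because erythroid genes are known targets of the transcription factors GATA1 and KLF1. Whether either factor had a part in the changes of the 9 genes was not tested. RefSeq windows (GRCm38.p6) from 250 bases before to 50 after an annotated start were found for 7 of the 9 genes, in 9 windows, with 3 for Epb41. Ank1 and Dmtn were not matched. GATA letters (AGATAA or its variant TGATAA, and AGATAG or its variant TGATAG, on either strand) stood in 6 of the 9 windows, against 29.8% of 32851 windows of all genes. The letters CCNCNCCC, of the kind KLF1 binds, also stood in 6 of the 9, against 49.5%, and both kinds stood in 3 of the 9, against 10.2%. Counted by gene, GATA letters stood in 5 of the 7 matched genes, CCNCNCCC in 5 and both in the same window in 3. The shares over all genes count windows. A match is a description of letters and no evidence of binding. The 250 bases before the start follow 5′ to 3′ on the gene's strand for 4 genes whose windows hold no annotated exon there, which are among the 5 with the smallest falls, with matches in capitals.
Sptb, chr12:76710548-76710797, minus strand: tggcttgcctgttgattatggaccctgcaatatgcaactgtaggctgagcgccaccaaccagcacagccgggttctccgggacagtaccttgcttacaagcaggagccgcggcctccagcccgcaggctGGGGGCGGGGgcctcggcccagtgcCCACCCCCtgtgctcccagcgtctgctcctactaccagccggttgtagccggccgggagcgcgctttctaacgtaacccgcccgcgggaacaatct
Mpp1, chrX:75131017-75131266, minus strand: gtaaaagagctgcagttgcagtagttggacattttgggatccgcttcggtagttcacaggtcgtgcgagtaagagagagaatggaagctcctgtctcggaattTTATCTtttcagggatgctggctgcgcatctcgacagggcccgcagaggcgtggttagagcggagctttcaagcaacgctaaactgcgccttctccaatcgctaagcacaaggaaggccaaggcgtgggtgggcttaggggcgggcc
Add1, chr5:34573414-34573663, plus strand: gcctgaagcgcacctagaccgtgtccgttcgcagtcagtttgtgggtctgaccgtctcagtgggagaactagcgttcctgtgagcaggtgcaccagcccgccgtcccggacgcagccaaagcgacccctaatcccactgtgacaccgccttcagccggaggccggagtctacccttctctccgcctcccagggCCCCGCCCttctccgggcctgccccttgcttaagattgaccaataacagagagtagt
Add2, chr6:86028431-86028680, plus strand: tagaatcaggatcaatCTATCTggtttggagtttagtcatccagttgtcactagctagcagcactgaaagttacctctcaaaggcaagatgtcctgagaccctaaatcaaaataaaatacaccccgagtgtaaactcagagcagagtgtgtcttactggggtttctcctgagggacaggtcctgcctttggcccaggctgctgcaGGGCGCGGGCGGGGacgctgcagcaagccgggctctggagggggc
In Sptb the capitals mark CCNCNCCC matches 121, 119 and 96 bases upstream of the start, of which the first 2 overlap, and a GATA match lies 12 bases past the start. Mpp1 has a GATA match 147 bases upstream and no CCNCNCCC match, whereas Add1 has a CCNCNCCC match 57 bases upstream and no GATA match. Add2 has a GATA match 234 bases upstream and overlapping CCNCNCCC matches 45 and 39 bases upstream.

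All 9 skeleton transcripts were lower in the NUP-17d cultures than in the DMSO cultures. The falls ran from 20.3% of the mean CPM for Add1 to 40.6% for Tmod1, and for each gene the highest NUP-17d culture was below the lowest DMSO culture. With edgeR's quasi-likelihood test and Benjamini-Hochberg adjustment over 12306 genes, all 9 passed 0.05 in the lower direction, where 18.9% of all tested genes did (16.4% passed in the higher direction and 35.3% in either). With library totals only, 8 of the 9 passed in the lower direction, where 5.34% of tested genes did. Groups did not overlap, with NUP-17d lower, for 23.2% of tested genes. On the log2 scale the fold changes of the 9 had a median of -0.55, beside 0.014 for all tested genes. A change as low as that of Add1 or lower was seen in 8.48% of tested genes, and as low as that of Tmod1 in 1.62%. The 9 genes together took 0.955% to 0.988% of the counts with DMSO and 0.748% to 0.786% with NUP-17d, and when hemoglobin counts were left out of the total these shares were 1.18% to 1.24% and 0.849% to 0.891%. In these bulk RNA samples fewer cells of a type and less RNA per cell cannot be told apart.

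Among the vertical links, beta spectrin was measured at 1076, 979 and 959 CPM in DMSO cultures 1 to 3 and at 737, 643 and 685 CPM in NUP-17d cultures 1 to 3. Culture 1 was the highest of its group in both, and the gap between the groups was wider than the spread within either. The log2 fold change of Sptb was -0.55 (SE 0.0451, edgeR adjusted p = 2.02e-10). Ankyrin-1 showed almost the same profile, with 1359, 1274 and 1231 CPM falling to 922, 833 and 880 CPM. Its log2 fold change was -0.55 (SE 0.0411, edgeR adjusted p = 2.43e-11). Protein 4.2 had the largest fold change of the 3. Epb42 stood at 1004, 924 and 947 CPM in the DMSO group and at 599, 575 and 600 CPM in the treated group, which is -0.70 as a log2 fold change (SE 0.0369, edgeR adjusted p = 3.23e-14).

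The spectrin-actin junction held both the most abundant transcript of the 9 and the ones that changed least. Epb41, which encodes protein 4.1R, was at 5261, 4861 and 4973 CPM with DMSO and at 3189, 3070 and 3215 CPM with NUP-17d (log2 fold change -0.67, SE 0.0395, edgeR adjusted p = 2.22e-13). Mpp1, whose protein p55 binds 4.1R and glycophorin C, was at 564, 538 and 533 CPM and then at 415, 420 and 423 CPM (log2 fold change -0.38, SE 0.0343, edgeR adjusted p = 1.25e-09). The 3 NUP-17d cultures were nearly equal for Mpp1, with an SD of 4.29 CPM beside 16.7 CPM with DMSO.

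The adducins were among the genes with the smallest fold changes. Add1, the broadly expressed alpha subunit, was at 565, 543 and 537 CPM with DMSO and at 442, 434 and 435 CPM with NUP-17d (log2 fold change -0.33, SE 0.0340, edgeR adjusted p = 1.42e-08). Add2, the beta subunit, which is largely restricted to blood and brain, was at 330, 309 and 300 CPM and then at 242, 227 and 232 CPM (log2 fold change -0.42, SE 0.0381, edgeR adjusted p = 1.09e-09). Add1 was the 1 member whose call depended on the scaling. Its log2 fold change with library totals only was -0.060 (edgeR adjusted p = 0.083), a setting in which the median of all tested genes moved to 0.28, and the adjusted p was 0.11 and 0.12 with limma on log2(FPKM + 1) and log2(FPKM + 0.1). Relative to the median of all genes, its change was -0.34 both with TMM and with totals only. Library factors shift all genes by nearly the same amount, so this equality was fixed in advance and is no check of the call.

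The remaining junction proteins, dematin and tropomodulin-1, were among those that fell most. Dmtn was at 559, 501 and 509 CPM with DMSO and at 344, 319 and 332 CPM with NUP-17d (log2 fold change -0.66, SE 0.0404, edgeR adjusted p = 5.48e-13). Tmod1 was at 434, 406 and 417 CPM and then at 247, 241 and 259 CPM, the deepest fall of the 9 (log2 fold change -0.75, SE 0.0369, edgeR adjusted p = 7.66e-15). The plot of CPM by culture shows this separation for every gene.

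**Figure D1:**
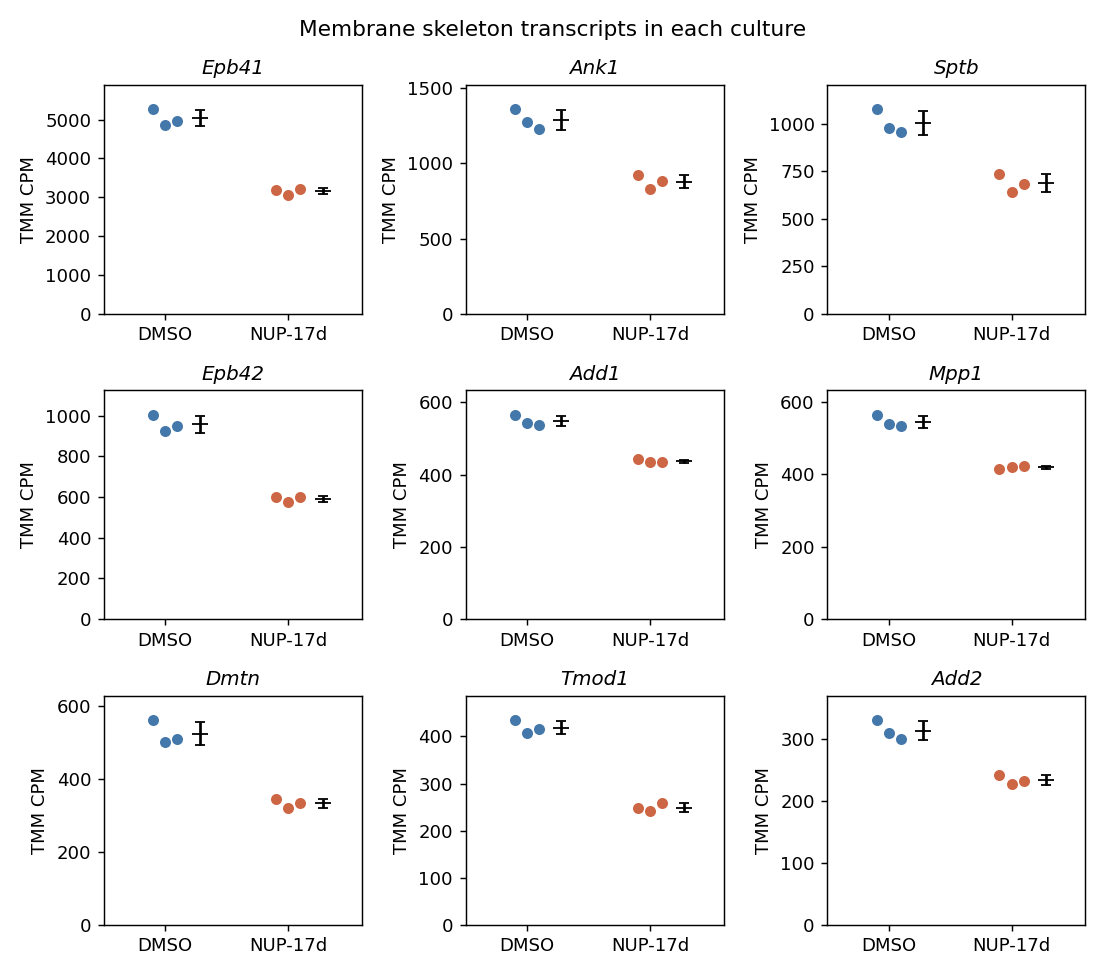
CPM (TMM scaled, linear axes from 0) of the 9 skeleton genes in the 3 DMSO and 3 NUP-17d cultures, 1 point per culture in the order 1 to 3, with the mean and SD beside them. In each panel all NUP-17d points lie below all DMSO points, from 20.3% lower on average for Add1 to 40.6% for Tmod1.

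Per length, Epb41 was by far the most abundant of the transcripts. Its FPKM was 880 ± 13.7 with DMSO (SD, n = 3), followed by Epb42 at 219 ± 3.82, Mpp1 at 194 ± 2.48, Ank1 at 157 ± 3.95, Tmod1 at 131 ± 1.14, Add1 at 122 ± 1.55, Dmtn at 112 ± 3.77, Sptb at 85.9 ± 3.42 and Add2 at 54.5 ± 2.18. With NUP-17d the order was Epb41 at 669 ± 11.2, Mpp1 at 181 ± 1.79, Epb42 at 163 ± 2.95, Ank1 at 130 ± 4.08, Add1 at 117 ± 2.19, Tmod1 at 93.6 ± 2.39, Dmtn at 85.6 ± 3.21, Sptb at 71.1 ± 4.88 and Add2 at 47.7 ± 1.70. No neighbors in either order overlapped in their ranges over the cultures. The order differed at 2 places: Mpp1 stood above Epb42, and Add1 above Tmod1, only in the NUP-17d cultures. FPKM has no correction for library composition, and the falls on this scale were smaller, from 3.66% for Add1 to 28.3% for Tmod1.

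To ask which members changed more than others, each gene's share of the summed FPKM of the 9 was taken within a culture, a ratio that library scaling does not alter. A larger share means a smaller fall than that of the sum, in which Epb41 weighed most (45.0% with DMSO), so the shares depend on each other. The adducins and p55 made up a larger share in the NUP-17d cultures. Add1 went from 6.22% ± 0.109 to 7.52% ± 0.145 (SD, n = 3 cultures in each group), Mpp1 from 9.94% ± 0.134 to 11.6% ± 0.311 and Add2 from 2.79% ± 0.0841 to 3.06% ± 0.0570, and Ank1 from 8.03% ± 0.151 to 8.36% ± 0.114. Tropomodulin-1, protein 4.2, protein 4.1R and dematin made up a smaller share. Tmod1 went from 6.68% ± 0.0782 to 6.01% ± 0.150, Epb42 from 11.2% ± 0.0905 to 10.5% ± 0.0175, Epb41 from 45.0% ± 0.297 to 42.9% ± 0.193 and Dmtn from 5.72% ± 0.107 to 5.49% ± 0.112. For these 8 genes the groups did not overlap (exact permutation test, two-sided, p = 0.1 each, the smallest that 3 against 3 cultures can give, 0.1125 after adjustment over the 9). Sptb overlapped between the groups, at 4.39% ± 0.113 and 4.56% ± 0.232 (exact permutation p = 0.5). With expected counts in place of FPKM, Ank1 overlapped as well (exact permutation p = 0.2).

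**Figure D2:**
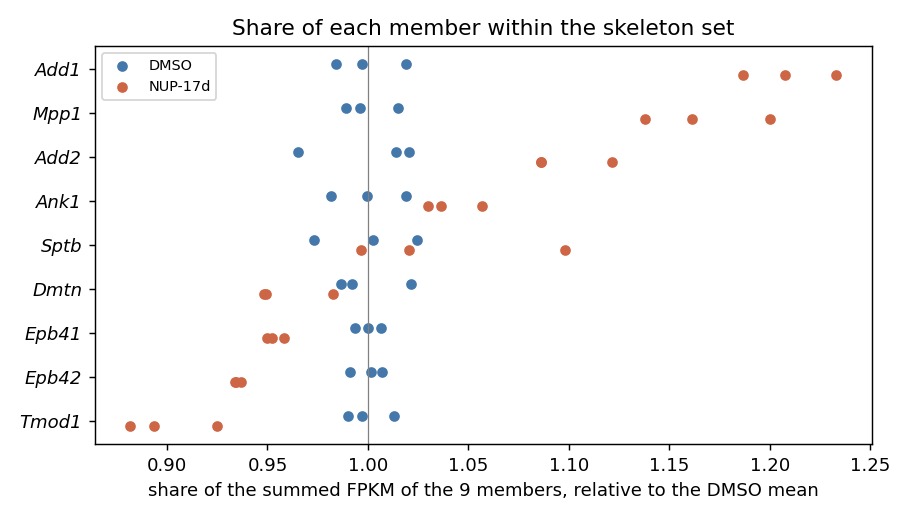
Share of each gene in the summed FPKM of the 9 skeleton genes, divided by the mean share in the DMSO cultures (x axis, ratio, not starting at 0), with 1 point per culture. Add1, Mpp1, Add2 and Ank1 lie to the right in the NUP-17d cultures and Tmod1, Epb42, Epb41 and Dmtn to the left, whereas the groups overlap for Sptb.

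Of 14 other skeleton partners (among them actins, tropomyosins, capping proteins, calmodulins and nonmuscle myosins), 3 were lower and 2 higher at an edgeR adjusted p below 0.05, shares close to those of all tested genes (18.9% and 16.4%), and the median log2 fold change was -0.015. The nonmuscle myosin Myh10 (-0.84, edgeR adjusted p = 2.38e-13) and the tropomyosin Tpm1 (-0.45, edgeR adjusted p = 1.24e-10) were among the lower genes, and both stayed lower and called under each of the 15 alternatives run. The 2 higher genes, named after their values were seen, were the actin Actg1 (0.20, edgeR adjusted p = 5.39e-05) and the myosin Myh9 (0.11, edgeR adjusted p = 0.0176), but 1 gene was called higher without DMSO culture 1, DMSO culture 3 or NUP-17d culture 1, 4 with upper-quartile scaling and 11 with totals only. In the setting with totals only, 8458 of the 12306 tested genes were called higher. The other 9 partners, among them every capping protein and calmodulin, did not pass with TMM.

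Most membrane anchors were lower. Of 14 genes, 11 were lower and 2 higher, beside 18.9% and 16.4% of all tested genes. The list's median log2 fold change was -0.46. The Kell antigen Kel changed by -0.74 on the log2 scale (edgeR adjusted p = 2.59e-15), and band 3, Slc4a1, by -0.71 (edgeR adjusted p = 4.43e-13). Glycophorin C, Gypc, the partner of p55 and protein 4.1R, changed by -0.53 (edgeR adjusted p = 1.26e-11). The 2 higher genes, named after their values were seen, were the flotillins Flot1 and Flot2, each at 0.20, and the 1 gene that did not pass was the glucose transporter Slc2a1 (0.043, edgeR adjusted p = 0.419). With totals only, 9 were lower and 4 higher, beside 5.34% of all tested genes lower and 8458 of 12306 higher.

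Ratios of FPKM within a culture were taken for 7 pairs chosen after the values were seen. Add1 over Add2 was 2.23 ± 0.0702 in the DMSO cultures and 2.46 ± 0.0676 in the NUP-17d cultures (SD, n = 3 each). Protein 4.2 and band 3 kept nearly the same proportion, with Epb42 over Slc4a1 at 0.0918 ± 0.000992 and 0.0927 ± 0.000989, and the groups overlapped (exact permutation p = 0.3). Ank1 over Slc4a1 was 0.0658 ± 0.00130 and 0.0739 ± 0.00102. The 2 binding partners of glycophorin C differed in direction: Epb41 over Gypc was 6.11 ± 0.129 and 5.54 ± 0.0890 while Mpp1 over Gypc was 1.35 ± 0.0307 and 1.496 ± 0.0405. Tmod1 over Tpm1, which encodes a tropomyosin, was 0.411 ± 0.00647 and 0.345 ± 0.00796. The other tropomyosin genes of the partner list, Tpm3 and Tpm4, did not pass with TMM (log2 fold changes 0.0097 and 0.093). Except for protein 4.2 over band 3, the groups did not overlap in any of the 7 pairs, the last being Tmod1 over Tmod3 (exact permutation p = 0.1, adjusted 0.117, for each).

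Each member also has relatives in sequence, some with other functions, such as the transglutaminases related to protein 4.2. They were looked up under 36 symbols, in which Pals1 and Pals2 are other names of Mpp5 and Mpp6. Of the 36 symbols 32 were listed and 24 tested. Of these, 3 were lower and 3 higher, beside 18.9% and 16.4% of all tested genes, and their median log2 fold change was 0.075. With totals only the counts became 1 and 17, beside 5.34% of all tested genes lower and 8458 of 12306 higher. Without DMSO culture 1 a single paralog was called higher. The lower genes were Mpp2 (-0.40, edgeR adjusted p = 9.41e-08), Tgm2 (-0.15, edgeR adjusted p = 0.00725) and Tmod3 (-0.11, edgeR adjusted p = 0.0464), of which Tgm2 and Tmod3 turned positive with totals only, at 0.11 and 0.16. The higher genes were the villin relatives Avil (0.81, edgeR adjusted p = 6.67e-06) and Vill (0.26, edgeR adjusted p = 0.034) and the 4.1 relative Epb41l1 (0.40, edgeR adjusted p = 0.0219), with mean FPKM of 0.650 to 3.56. Sptbn1, Epb41l2, Add3, Svil, Mpp6 and F13a1 did not pass.

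The ratio of each member to its most abundant paralog does not depend on library factors, and it was lower in all NUP-17d cultures than in all DMSO cultures. It restates the changes of member and paralog, for members chosen with earlier results known, and is no separate test. The part of cell composition in these ratios was not tested. The FPKM ratio of Epb41 to Epb41l2 was 91.1 ± 6.39 in the DMSO cultures and 56.4 ± 2.70 in the NUP-17d cultures (SD, n = 3 each), that of Sptb to Sptbn1 10.5 ± 0.877 and 6.87 ± 0.482, that of Dmtn to Svil 10.1 ± 0.804 and 6.05 ± 0.165, and that of Tmod1 to Tmod3 5.28 ± 0.0727 and 3.38 ± 0.146. The ratio was also taken for Mpp1 over Mpp6, at 13.2 ± 0.944 and 10.5 ± 0.212, for Add1 over Add3, at 7.75 ± 0.229 and 6.12 ± 0.205, and for Add2 over Add3, at 3.48 ± 0.211 and 2.49 ± 0.125. Epb42 over the transglutaminase F13a1 was 2.70 ± 0.111 and 1.69 ± 0.0704. The groups did not overlap in any of these ratios, nor in that of Ank1 to Ank3, whose FPKM was only 0.08 to 0.15 (exact permutation p = 0.1 for each, also after adjustment over 9).

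**Figure D3:**
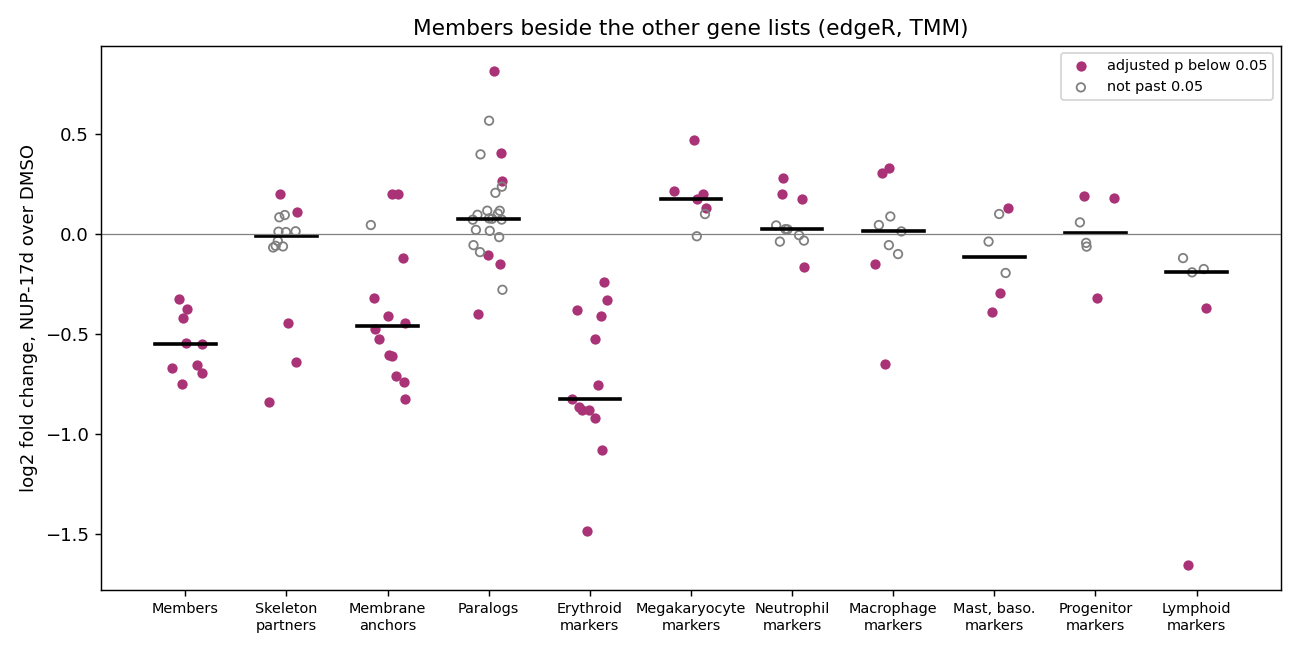
Log2 fold change (NUP-17d over DMSO, edgeR with TMM) of each tested gene in the 9 members and in 10 other gene lists, with filled points for an adjusted p below 0.05 and a bar at the median of each list. All members lie between -0.75 and -0.33, the anchors and erythroid markers lie mostly below 0, and the skeleton partners and paralogs center near 0 with this scaling.

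Markers of the cell types such a culture could hold were measured in the same fit. All 13 erythroid markers were lower, beside 18.9% of all tested genes. Their median log2 fold change was -0.83, and their summed level was 206560 to 239400 CPM with DMSO and 113280 to 127400 CPM with NUP-17d. This list and the anchors share 2 genes. The list also holds hemoglobin genes, and with these removed the markers that remained, 7, were all called lower. Without DMSO culture 1, 12 of the 13 were called lower. Of the hemoglobin genes, Hbb-b1 and Hbb-b2 had few reads, at or below 14.59 and 2.38 CPM in every culture. Hbb-bs had a mean of 77814 CPM with DMSO. Among the lowest p-values of that list were the hemoglobin gene Hbb-bt (-0.92) and Alas2, the first enzyme of heme synthesis (-0.76). The log2 fold changes of Klf1 and Gata1, chosen after their values were seen, were -0.24 and -0.33, but with totals only Klf1 stood at 0.028 and Gata1 at -0.067. Of 7 megakaryocyte markers, 5 were higher and 0 lower, beside 16.4% and 18.9% of all tested genes. Their summed level was 449 to 496 CPM with DMSO and 519 to 539 CPM with NUP-17d, and Gp1bb had the lowest p (log2 fold change 0.47). With totals only, 11 erythroid markers were lower and 0 higher, and 7 megakaryocyte markers were higher. In that setting 5.34% of all tested genes were lower and 8458 of 12306 higher.

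The counts of the next lists stand beside 18.9% of all tested genes called lower and 16.4% called higher with TMM. Neutrophil markers overlapped in summed level (3939 to 4112 CPM and 4052 to 4302 CPM), with 1 of 10 lower and 3 higher, and without NUP-17d culture 3 the lower count was 2. Macrophage markers also overlapped (1481 to 1599 CPM and 1587 to 1754 CPM), with 2 of 9 lower and 2 higher. The macrophage lower count was 0 without DMSO culture 2, DMSO culture 3 or NUP-17d culture 1 and 1 without NUP-17d culture 3, and the higher count was 1 without DMSO culture 1 or NUP-17d culture 2. Of stem and progenitor markers, 1 of 6 tested was lower and 2 were higher, and the summed level was 276 to 289 CPM and 278 to 290 CPM, with 1 higher without DMSO culture 1 or NUP-17d culture 1. Mast cell and basophil markers summed to 290 to 302 CPM and 271 to 280 CPM, with 2 of 6 lower and 1 higher, the latter not called without DMSO culture 1, DMSO culture 2 or NUP-17d culture 3. Lymphoid markers were at 21.5 to 24.6 CPM and 19.3 to 19.5 CPM, with 2 of 5 lower, and 1 without DMSO culture 1, DMSO culture 3, NUP-17d culture 1 or NUP-17d culture 2. With totals only, in which the median of all tested genes was 0.28, the lower and higher counts were 0 and 9 for neutrophil, 0 and 5 for macrophage, 0 and 5 for stem and progenitor, 0 and 3 for mast cell and basophil, and 1 and 0 for lymphoid markers. In that setting 5.34% of all tested genes were called lower and 8458 of the 12306 higher. No listed marker was at 0 in any culture. The part of cell composition in the fall of the skeleton genes was not tested.

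The deposited tables give a length per gene and culture that the files do not define. It was read here as a mean transcript length, and the values below rest on that reading. It was looked at for the 9 genes after the files had been seen. Sptb, Epb42, Tmod1 and Mpp1 list a single transcript. Of the 5 genes whose length varied, 4 did not overlap between the groups, where 11.4% of the 4611 genes with a varying length did not. That share takes in genes with few reads and was not matched to the read counts of the 5 genes. It therefore cannot show whether non-overlap is particular to them. For Add2 the mean length was 5100, 5119 and 5200 bases with DMSO and 5295, 5340 and 5242 bases with NUP-17d, 2.98% longer on average. The other 3 differed by under 1%, with Epb41 at 5112 ± 1.56 and 5101 ± 2.93 bases (SD, n = 3), Add1 at 4045 ± 1.93 and 4038 ± 1.15 bases and Dmtn at 4186 ± 4.22 and 4193 ± 1.27 bases (exact permutation p = 0.1 for each of the 4, 0.125 after adjustment over the 5). Ank1, with 9 transcripts, overlapped at 7322 ± 64.8 and 7265 ± 137 bases (exact permutation p = 0.6).

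**Figure D4:**
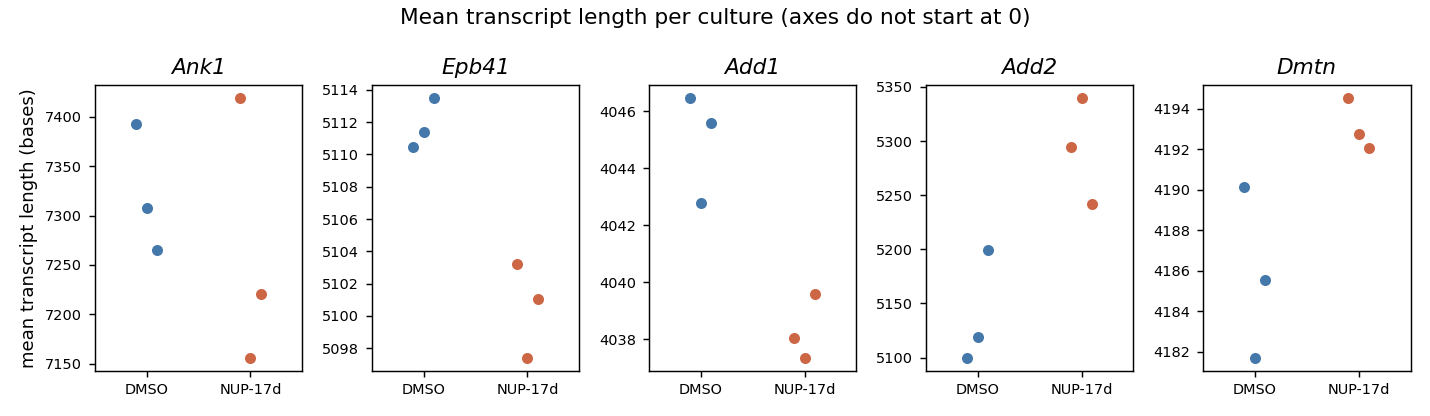
Deposited length, read as the mean transcript length in bases (y axes not starting at 0, each with its own range) of the 5 skeleton genes whose length varied, 1 point per culture. Add2 and Dmtn are longer and Epb41 and Add1 shorter in all NUP-17d cultures than in all DMSO cultures, by 2.98% for Add2 and by less than 1% for the others, and Ank1 overlaps.

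The genes most like the skeleton genes in their profile over the 6 cultures were found by the root mean square difference between each gene's log2 CPM deviations and the median deviations of the 9, over the 9754 genes whose mean count reached 100. They were Asb1 (0.00999 log2 units), Ccne1 (0.0305), which encodes cyclin E1, Abcb4 (0.0308), a phospholipid transporter, Aff1 (0.0324) and Klf3 (0.0335), a Krüppel-like transcription factor. Asb1 was at 367 ± 19.98 CPM in the DMSO cultures and 248 ± 15.3 CPM in the NUP-17d cultures (SD, n = 3 each). The log2 fold changes of the 5 genes ran from -0.56 for Abcb4 and Asb1 to -0.54 for Klf3, close to the median of the 9 by construction.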

How the data were processed

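RNA-Seq tables of 6 cultures (3 DMSO, 3 NUP-17d, 48 hours), grouped by their labels, were used. The deposited expected count is the authors' estimate of the reads per gene, not normalized. The deposited FPKM is that count divided by transcript length and library total, and the deposited length, which the files do not define, was read as a mean transcript length per gene and culture. Genes without reads in a culture are left out of its table and were taken as 0. The submitters' processing notes name the build mm10. The aligner and counting program are not given in the sources used here. The labels describe a DNBseq instrument and random priming, and the study's methods a stranded Illumina kit.

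Expected counts were rounded, filtered by filterByExpr and TMM scaled, and edgeR 4.0.16 (R 4.3.3) quasi-likelihood tests were adjusted by Benjamini-Hochberg over 12306 genes at a threshold of 0.05. Single values were tested by two-sided exact permutation (scipy 1.17.1), for which 3 against 3 cultures cannot go below p = 0.1. Scripts were tested on simulated data. Alternatives were DESeq2 1.42.0, limma 3.58.1 on log2 FPKM with pseudocounts 1 and 0.1, other scalings, no filter, hemoglobin genes removed, the culture number as a block, and each culture left out.

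The members and gene lists were chosen with earlier results of these data known. Named were all 9 members, in the other lists genes among the 3 lowest p-values and the defining gene of a sentence (such as band 3, glycophorin C or the paralog with the highest FPKM), and the 5 genes most like the members, with exceptions stated. Some genes that this rule names are not reported here. Coordinates are from GENCODE vM21 and RefSeq. Depth was nearly equal, so genes with few reads, such as Ank3 and the lymphoid markers, were measured least precisely.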

Additional observations from a re-analysis of the deposited data

How the results depend on the processing

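Each of the 9 skeleton genes kept a log2 fold change below 0 in all 15 alternatives, and 132 of the 135 gene and setting pairs were called. The 3 exceptions were Add1 with totals only (-0.060), with limma on log2(FPKM + 1) (-0.054) and with limma on log2(FPKM + 0.1) (-0.054). In these 3 settings, in that order, the median of the 9 genes was -0.28, -0.27 and -0.27, the median of all tested genes 0.28, 0.22 and 0.27, the genes called lower 657, 636 and 635, and the genes called higher 8458, 8423 and 8403. These settings apply no correction for library composition. They called 11 skeleton partners higher in each case, 4 anchors higher in each, and 1 paralog lower and 17 higher in each. DESeq2 called 1276 genes and 1 paralog higher, and upper-quartile factors called 4 partners higher. The cause of these 2 differences was not tested. Relative to the median of all tested genes, Tmod1 ranged from -0.79 to -0.69 and Add1 from -0.36 to -0.27.

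Leaving out each culture in turn gave 1 to 2 partners and 1 to 4 paralogs called higher, and log2 fold changes of -0.78 to -0.73 for Tmod1 and -0.34 to -0.31 for Add1. Over all tested genes, same-numbered cultures did not deviate together (correlations 0.0132, -0.0289 and -0.0638), so the numbers were not taken as pairs. With the culture number as a replicate block, 2121 genes were called higher and 2422 lower. All 9 skeleton genes were called, each with a smaller edgeR adjusted p than without the block, and their median was -0.55. Depth limits the paralogs with few reads, of which 8 listed ones were not tested.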
